A study of Mus musculus with 4 samples.

Results

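The 8 genes described here belong to the complement system: C1qa, C1qb and C1qc, which encode the 3 chains of C1q, the components C3, factor B (Cfb) and properdin (Cfp), and the receptors C3ar1 and C5ar1. They were taken by name from the 32285 genes of the table of raw counts. Their levels were followed across immune cell types of mammary tumors, and none of the 8 genes was used to define a cell type.

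The cells were viable CD45+ leukocytes sorted from EO771 tumors, a mouse mammary carcinoma line grown in the mammary fat pad of female mice to a volume of 1.5 cm3. The controls were 2 tumors of Csf1rfl/fl mice, in which both alleles of Csf1r carry loxP sites and no Cre is present. The other 2 tumors came from Lyve1CreCsf1rfl/fl mice, which carry the same floxed alleles and in addition Cre under control of Lyve1, so that Csf1r is deleted in cells that express or expressed LYVE-1. Csf1r encodes the receptor for CSF1, the growth factor that most macrophages require, and LYVE-1 is found on a subset of tissue macrophages and on lymphatic endothelium, so the Cre is not limited to macrophages. A Chromium run captured 1 tumor of each genotype together, with hashtag antibodies to separate them, and since there were 2 such runs the tumors are named here by genotype and run.

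C1q is the recognition molecule of the classical complement pathway. It is a bundle of heterotrimers of the A, B and C chains, binds immune complexes and dying cells, and is made in large part by macrophages rather than by the liver. C3 is the component on which all complement pathways converge. Factor B and properdin belong to the alternative pathway, the first as the protease subunit of its convertase and the second as the protein that stabilises this convertase. Cleavage of C3 and C5 releases the anaphylatoxins C3a and C5a, small peptides that act on myeloid cells through the receptors encoded by C3ar1 and C5ar1.

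In GRCm38 the 3 C1q genes lie side by side on the minus strand of chromosome 4, C1qb at chr4:136880129-136886187, C1qc at chr4:136889804-136893065 and C1qa at chr4:136895917-136898803. C3 (chr17:57203970-57228136) and Cfb (chr17:34856374-34862518) lie apart on chromosome 17, and C3ar1 (chr6:122847138-122856161), C5ar1 (chr7:16246743-16259540) and Cfp (chrX:20925454-20931555) on other chromosomes, all on the minus strand. The promoters of C1qb and C1qc are shown because the C1q chains were the members that moved together across cell types. Each is the 250 bases before the start of the RefSeq transcript on build GRCm38.p6, written 5′ to 3′ on the minus strand, and 6 of the 8 genes had such an entry. Capitals mark GAGGAA (or its reverse complement TTCCTC), a sequence bound by the Ets factor PU.1, which was searched on both strands. The shorter GGAA, the core of Ets factors in general, was not marked.

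C1qb, chr4:136886201-136886450: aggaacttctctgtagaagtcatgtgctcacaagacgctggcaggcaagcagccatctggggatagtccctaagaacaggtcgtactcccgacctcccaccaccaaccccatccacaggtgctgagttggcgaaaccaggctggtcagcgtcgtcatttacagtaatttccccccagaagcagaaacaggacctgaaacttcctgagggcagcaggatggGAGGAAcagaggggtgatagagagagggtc

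C1qc, chr4:136892915-136893164: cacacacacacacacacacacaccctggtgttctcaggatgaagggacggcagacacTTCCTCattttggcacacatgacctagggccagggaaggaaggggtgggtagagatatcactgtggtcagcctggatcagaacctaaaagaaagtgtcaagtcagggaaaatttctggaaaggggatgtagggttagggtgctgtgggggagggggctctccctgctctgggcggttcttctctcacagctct

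Counted back from the RefSeq transcript start, GAGGAA began at position -30 in C1qb and TTCCTC at -193 in C1qc. That start lies inside the GENCODE span of C1qc given above, so 151 of the 250 bases of its promoter fall within the gene, whereas those of C1qb lie outside its span. The promoters of C3, C3ar1, C5ar1 and Cfp did not hold these letters. Over all 32851 promoters of this length, 23.3% held GAGGAA on either strand, so a match is a description of the letters and not of binding.

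Of 53361 barcodes, 28429 had been kept by the authors as singlets, and 28418 remained after 11 cells with equal hashtag counts were left out. The tumors had 4771 to 8613 cells, 27686362 to 56349195 UMIs and a median of 3718 to 4668 UMIs per cell. The runs shared 200 barcodes, of which 60 were among the kept cells. In the Csf1rfl/fl tumor of run 1, 21.1% of the cells carried markers of 2 or more lineages, against 10.6% to 14.0% in the other tumors. Scrublet, a doublet caller, marked 74.2% of these 4086 cells, and they were held apart from all cell types. The targeted gene Csf1r stood at 0.898 and 0.964 UMIs per 10000 over all kept cells of the Csf1rfl/fl tumors of runs 1 and 2, and at 0.430 and 0.454 in the Lyve1CreCsf1rfl/fl tumors. Mononuclear phagocytes, the cells that express it, made up 20.03% and 19.9% of the cells in the controls and 10.8% and 12.8% in the Lyve1CreCsf1rfl/fl tumors. Csf1r UMIs counted toward the phagocyte gate, and how far these shares depend on that was not tested. The shares also leave out barcodes of 2 or more lineages with the phagocyte gate among them. These were 16.8% and 8.04% of the cells in the controls and 6.35% and 7.65% in the Lyve1CreCsf1rfl/fl tumors. Within phagocytes, Csf1r was at 2.57 and 2.79 in the controls and at 2.06 and 1.94 in the Lyve1CreCsf1rfl/fl tumors, but it was one of the genes of the phagocyte gate, and 3′ reads need not lie in the deleted part of the gene. Lyve1 itself had 147 UMIs in 62 of all kept cells, 4 of them Adgre1 macrophages as defined next.

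Cell types were set by marker UMIs. Phagocytes were cells with at least 2 UMIs of a set of macrophage genes, among them Csf1r, Adgre1, Ms4a7, Mertk and Mrc1. They also had to stay below the minimum of marker UMIs of every other lineage. Those with at least 10 UMIs per 10000 of Arg1, Mmp12, Gpnmb and Spp1 together are called Arg1 macrophages (417 cells), and of the rest those with at least 10 of Ly6c2 per 10000 are called Ly6c2-high monocytes (2658 cells). The remainder were split into Adgre1 macrophages (550 cells with a UMI of Adgre1, which encodes F4/80) and Adgre1-negative phagocytes (1041 cells). Of the markers that did not set these gates, the mean of Cd68 was highest in Arg1 macrophages and that of Chil3 in Ly6c2-high monocytes, while Plac8 averaged 51.6 UMIs per 10000 in these monocytes and 51.2 in plasmacytoid dendritic cells. Ccr2, also a marker of monocytes, had its highest mean in NK cells (4.76). The gate on 1 UMI of Adgre1 depends on depth, with a median of 5723.5 UMIs per cell with it and 3717 without. Neutrophils, 4 kinds of dendritic cells, NK cells, T cells and a few stromal or tumor cells made up the 12 types compared, and 37 B cells were too few to compare.

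Levels are UMIs of a gene per 10000 UMIs of the cells of a type in 1 tumor. Where 4 values are given, they follow the order Csf1rfl/fl of runs 1 and 2, then Lyve1CreCsf1rfl/fl of runs 1 and 2. Since reads come from the 3′ end of transcripts, the level of a gene is compared between cell types and tumors, and not with that of another gene. Cell types were compared with edgeR's quasi-likelihood test on UMIs summed per type and tumor with the tumor as a block, and p-values were adjusted by Benjamini-Hochberg over all 11061 genes of the fit (n = 4 tumors).

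All 3 C1q chains were highest in Adgre1 macrophages. C1qa stood there at 23.8 and 18.5 UMIs per 10000 in the controls (Csf1rfl/fl, runs 1 and 2) and at 13.8 and 9.63 in the Lyve1CreCsf1rfl/fl tumors, from 341 to 3965 UMIs per tumor. C1qb stood at 21.4, 15.0, 12.4 and 9.43 in the same order, and C1qc at 17.0, 12.3, 8.20 and 7.51. The controls were the highest tumors for each chain and the genotypes did not overlap, which was the case, in this direction, for 16.4% of all genes tested in these cells. In the 312 of the 550 cells with exactly 1 Adgre1 UMI, the genotypes overlapped for each chain. C1qa was there at 18.7, 9.73, 12.7 and 7.18. With 2 Adgre1 UMIs, C1qb and C1qc overlapped and C1qa did not. With 3 or more, no chain overlapped, and C1qa was at 35.0, 28.1, 12.8 and 17.7. Such cells numbered 54, 48, 5 and 12. In Arg1 macrophages C1qa was at 9.0, 3.98, 2.58 and 5.44, and in Adgre1-negative phagocytes at 10.7, 4.80, 3.96 and 2.49. In Ly6c2-high monocytes it was at 4.05, 2.49, 2.74 and 1.90, so every tumor had its highest C1qa in Adgre1 macrophages.

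Against Ly6c2-high monocytes, C1qa was higher in Adgre1 macrophages by 2.33 on the log2 scale (SE 0.197, adjusted p = 4.91e-13, edgeR's quasi-likelihood test), C1qb by 1.97 (SE 0.187, adjusted p = 1.81e-11) and C1qc by 2.45 (SE 0.195, adjusted p = 5.99e-14). Of the 8 genes, 7 passed the threshold of 0.05 in this comparison, 5 higher and 2 lower in Adgre1 macrophages, where 20.6% of all genes did, 7.78% higher and 12.8% lower. Against Arg1 macrophages the 3 chains were the only members called, by 1.66, 1.17 and 1.71, with 15.2% of all genes called. Against Adgre1-negative phagocytes they were called with C3ar1, by 1.66, 1.50 and 1.81, with 2.36% of all genes called. The chains were higher in Adgre1 macrophages than in each of the other 11 types, comparisons that called 2.36% to 65.5% of all genes. The next types in the order were not told apart: for C1qa, Adgre1-negative phagocytes and Arg1 macrophages gave an adjusted p of 1 (SE 0.188 on the log2 scale).

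Outside the phagocytes C1q was low. In neutrophils C1qa was at 0.208 ± 0.0674 UMIs per 10000 (SD, n = 4 tumors), in T cells at 0.102 ± 0.0410 and in NK cells at 0.0562 ± 0.0193. The highest value in any dendritic cell type of any tumor was 0.453, in plasmacytoid dendritic cells of the Csf1rfl/fl tumor of run 2, and it came from 16 UMIs. In that type and tumor 1 of the 72 cells held 88.2% of the C1q UMIs. To set shares of cells on 1 depth, cells were thinned to 2000 UMIs. A UMI of C1qa was then found in 51.5% of Adgre1 macrophages (exact binomial 95% interval 47.2 to 55.9, counting error only, 24 cells left out), against 54.2% before thinning. The share was 26.2% in Adgre1-negative phagocytes, 24.7% in Arg1 macrophages and 14.0% in Ly6c2-high monocytes. In T cells, taken as a background without testing whether it is free RNA, it was 1.63%, and in neutrophils 2.94%.

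**Figure D1:**
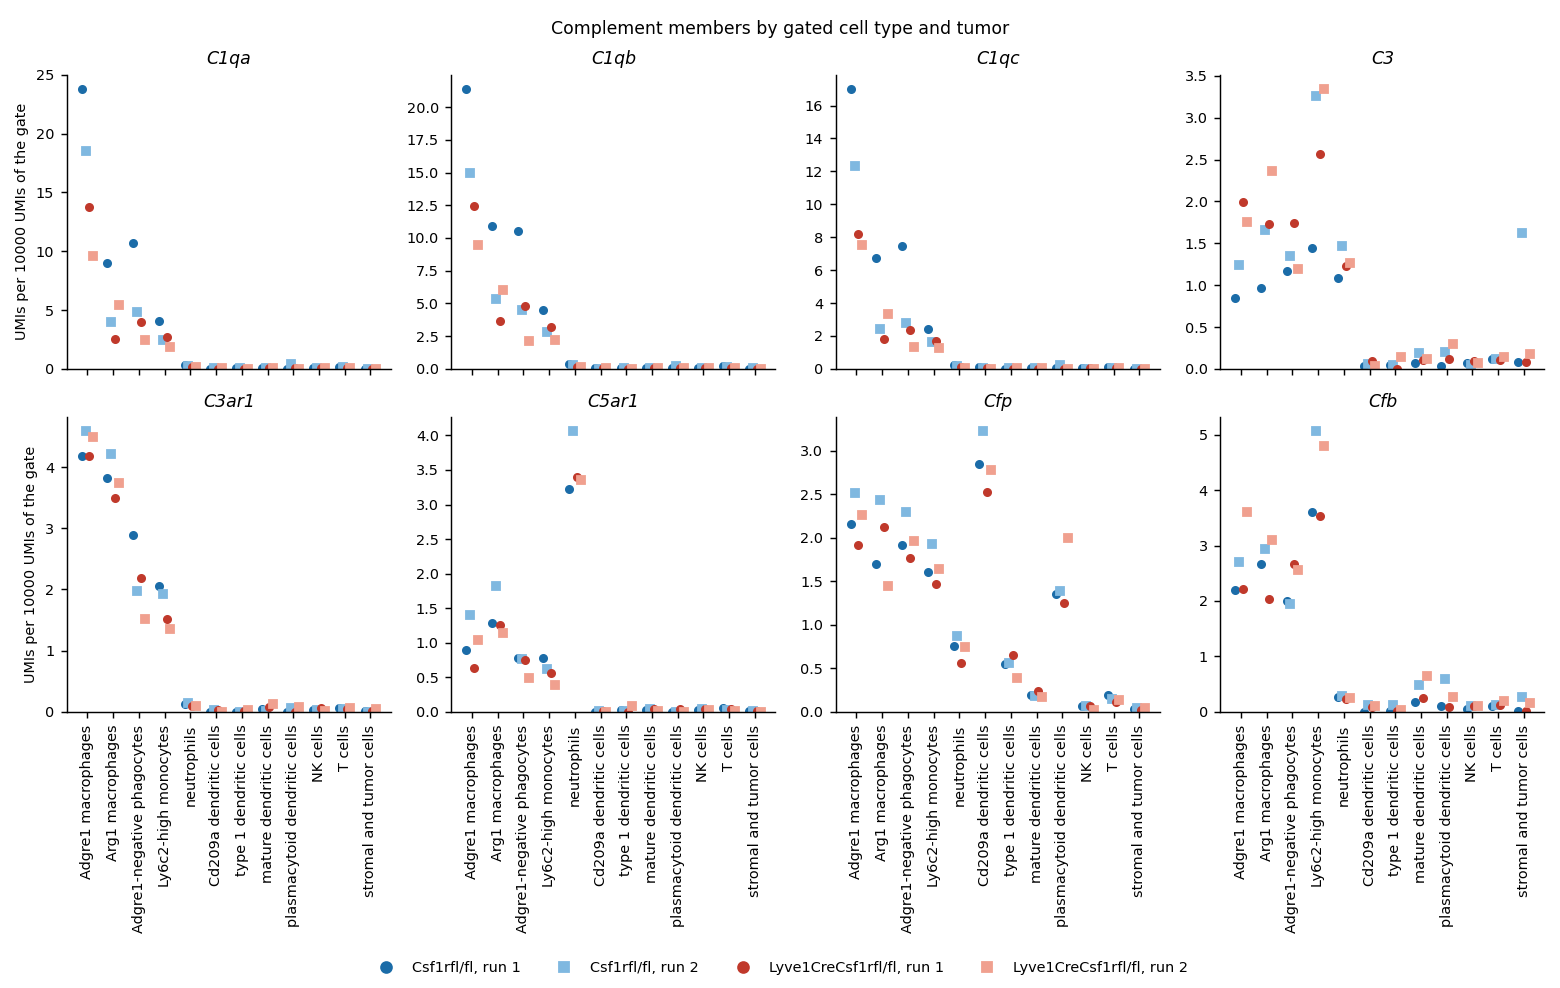
Level of each of the 8 genes in the 12 cell types, in UMIs per 10000, with 1 point per tumor, genotype shown by color and run by symbol. The C1q chains stand highest in Adgre1 macrophages, C5ar1 in neutrophils, Cfb in Ly6c2-high monocytes and Cfp in Cd209a dendritic cells.

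The Adgre1 macrophages were of different kinds with respect to C1q. No UMI of any chain was found in 214 of the 550 cells, although 201 of these had at least 2000 UMIs, while 280 cells (50.9%) had 20 or more C1q UMIs per 10000, a limit chosen after the distribution was seen. Only 51 cells lay between 10 and 40 per 10000. All 3 chains were found in 279 cells, which is 83.0% of the cells with any chain. Cells with 10 or more C1q UMIs held 98.9% of the C1q UMIs of this type. The share of cells over the limit was 60.4% and 49.7% in the controls and 37.3% and 35.5% in the Lyve1CreCsf1rfl/fl tumors. The level within the cells over the limit was 94.1, 76.1, 81.3 and 71.4 C1q UMIs per 10000 in the same order, so the genotypes overlapped in this level and not in the share. Depth moved with genotype, with a median of 6072.5 and 6667 UMIs per cell in the controls and 4143 and 4750 in the Lyve1CreCsf1rfl/fl tumors. In cells thinned to 2000 UMIs, a UMI of C1qa was found in 60.4% and 52.9% of the cells in the controls and in 35.3% and 32.2% in the Lyve1CreCsf1rfl/fl tumors. The median depth was 6866.5 UMIs over the limit and 4995 under it, and Scrublet marked 9.29% and 14.8% of the cells.

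**Figure D2:**
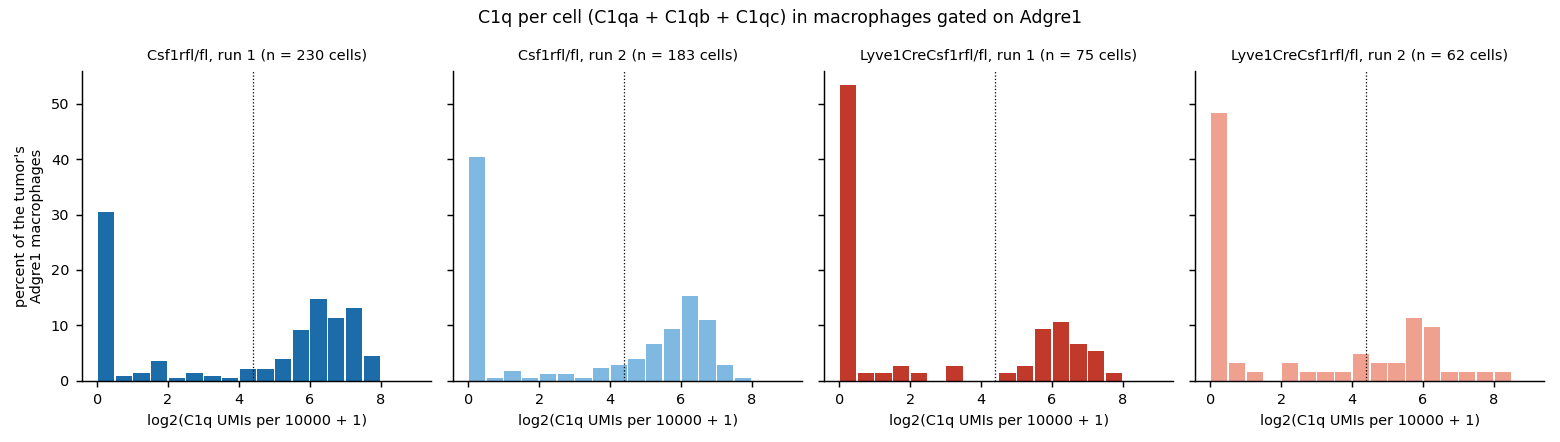
Share of Adgre1 macrophages of each tumor by log2 of 1 plus the C1q UMIs (3 chains) per 10000 UMIs of the cell, with a dotted line at 20 per 10000. Cells without C1q and cells over 20 per 10000 form separate groups in all 4 tumors, and 51 of 550 cells lie between 10 and 40.

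Other genes in the Adgre1 macrophages over and under the limit are given as levels without a test, because the cells were split by a measured value. C3ar1 was at 5.24 and 5.60 UMIs per 10000 over the limit in the Csf1rfl/fl tumors and at 6.55 and 5.995 in the Lyve1CreCsf1rfl/fl tumors, against 2.14, 3.10, 2.47 and 3.65 under it. C3 averaged 1.08 over the limit and 1.74 under it, with overlapping tumors. C5ar1 averaged 1.013 and 0.939, Cfp 2.34 and 2.07, and Cfb 2.85 and 2.46, each also with overlapping tumors. Ms4a7, a macrophage gene of the MS4A family, averaged 13.3 and 3.33, whereas Plac8, a gene of monocytes, averaged 6.37 and 27.7.

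In the other phagocytes, too, many cells lacked C1q. No chain was found in 1861 of 2658 Ly6c2-high monocytes, and cells with 10 or more C1q UMIs held 89.1% of the C1q UMIs of these monocytes. In T cells 11 such cells held 28.0%. No chain was found in 612 of 1041 Adgre1-negative phagocytes and in 214 of 417 Arg1 macrophages.

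The balance of the chains was not the same in Adgre1 macrophages and in Ly6c2-high monocytes. C1qa gave 39.0% of the C1q UMIs of Adgre1 macrophages, C1qb 34.0% and C1qc 27.0%. In Ly6c2-high monocytes the shares were 36.2%, 41.1% and 22.7%, and in Arg1 macrophages 33.9%, 42.6% and 23.4%. The share of C1qb in Adgre1 macrophages was 34.4%, 32.7%, 36.1% and 35.5% over the tumors, against 40.9%, 40.9%, 42.1% and 41.1% in Ly6c2-high monocytes, with no overlap. In Adgre1-negative phagocytes it was 36.7%, 37.0%, 43.0% and 35.8%, which overlapped both. Neutrophils and T cells had C1qb shares of 41.8% and 40.7%. These shares are a description with no test.

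Among the phagocytes other than Arg1 macrophages, C1q was higher where Ly6c2 was lower, which is a description in bins chosen after the data were seen. With Ly6c2 under 5 UMIs per 10000, the 3 chains together were at 53.8, 32.1, 22.5 and 16.0 UMIs per 10000 in the 4 tumors, and with Ly6c2 of 40 or more at 9.60, 4.76, 5.94 and 2.45. C3ar1 went the same way, from 3.61, 3.38, 3.20 and 2.63 in the lowest bin to 1.965, 1.95, 1.15 and 1.75 in the highest. Cfb went the opposite way, from 1.94, 2.22, 2.04 and 2.44 to 4.81, 8.36, 5.46 and 8.50. C3 was at 0.92, 1.06, 1.80 and 1.11 in the lowest bin and at 1.46, 3.603, 2.96 and 4.32 in the highest. The lowest and the highest bin did not overlap over the 4 tumors for C1q, C3ar1 and Cfb. They overlapped for C3, which was still higher in the highest bin than in the lowest of the same tumor each time. Of 7129 genes with at least 100 UMIs in these bins, 14.7% were higher and 7.21% lower in the lowest bin without overlap. Median depth was 4237 UMIs in the bin of lowest Ly6c2 and 4942 in that of highest Ly6c2, and reached 5204.5 in the bin of 20 to 40. Of the 4249 cells in these bins, 1301 had Ly6c2 between 5 and 20 per 10000, near the limit of 10 between the types.

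**Figure D3:**
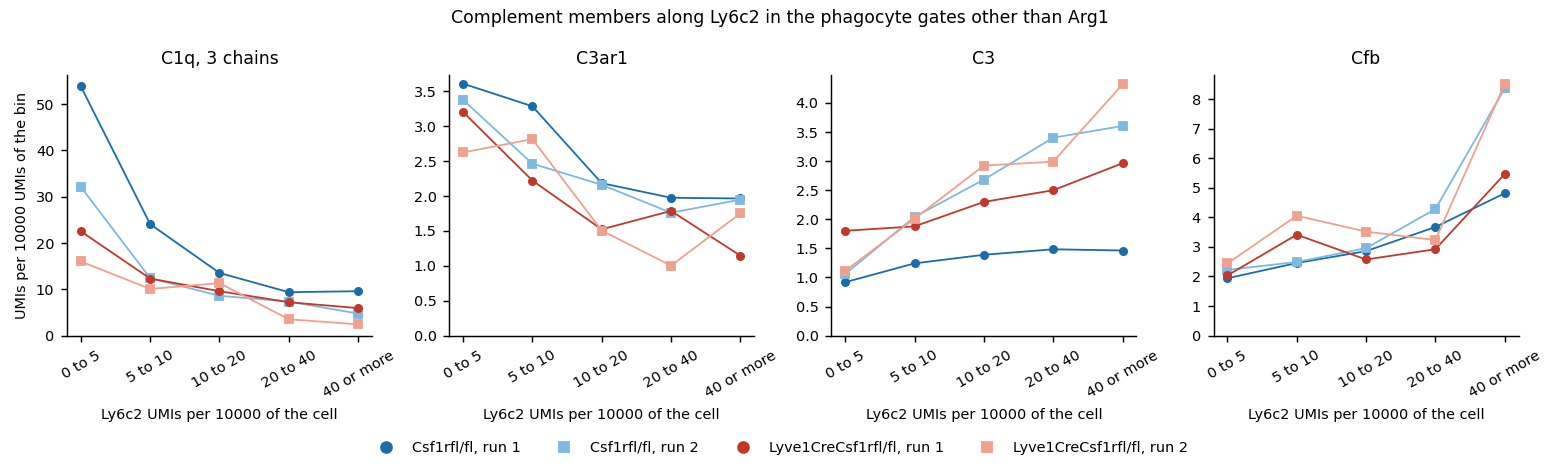
Level of the C1q chains together and of C3ar1, C3 and Cfb in phagocytes other than Arg1 macrophages, in UMIs per 10000, against bins of the cell's Ly6c2 level, with 1 line per tumor. In all 4 tumors C1q and C3ar1 are lower, and C3 and Cfb are higher, in the bin of highest Ly6c2 than in that of lowest Ly6c2.

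Cfb, the protease subunit of the alternative convertase, was highest in Ly6c2-high monocytes. Its level there was 3.61 and 5.06 UMIs per 10000 in the controls and 3.54 and 4.80 in the Lyve1CreCsf1rfl/fl tumors, so run 2 was higher than run 1 in both genotypes. It was 2.69 ± 0.468 (SD, n = 4) in Arg1 macrophages, 2.68 ± 0.664 in Adgre1 macrophages and 2.29 ± 0.371 in Adgre1-negative phagocytes, which were not told apart. Monocytes were above each of the other 11 types (16.3% to 74.4% of all genes called), by 0.81 on the log2 scale over Arg1 macrophages (SE 0.210, adjusted p = 0.00296, edgeR's quasi-likelihood test, 21.2% of all genes called) and by 0.88 over Adgre1 macrophages (SE 0.205, adjusted p = 0.00118; with DESeq2, adjusted p = 0.174). Of the other types compared, mature dendritic cells had the highest mean, at 0.170, 0.480, 0.243 and 0.642, but neutrophils were above them in the Csf1rfl/fl tumor of run 1 (0.260) and plasmacytoid dendritic cells in that of run 2 (0.595). In thinned cells, a UMI of Cfb was found in 47.1% of Ly6c2-high monocytes, 5.98% of mature dendritic cells and 1.93% of T cells.

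C3, the central component, was found in all phagocyte types and in neutrophils, with its highest mean in Ly6c2-high monocytes. In Ly6c2-high monocytes it was at 1.44, 3.26, 2.57 and 3.35 UMIs per 10000, with the Csf1rfl/fl tumor of run 1 the lowest, and in neutrophils at 1.08, 1.47, 1.23 and 1.27. Arg1 macrophages were at 1.68 ± 0.572 (SD, n = 4), Adgre1 macrophages at 1.46 ± 0.514 and Adgre1-negative phagocytes at 1.36 ± 0.264. The monocytes were above Adgre1 macrophages by 1.12 on the log2 scale (SE 0.296, adjusted p = 0.00437, edgeR's quasi-likelihood test; with DESeq2, adjusted p = 0.228) and above Arg1 macrophages by 0.86 (SE 0.301, adjusted p = 0.0336). Monocytes and neutrophils differed by 0.03 (SE 0.264, adjusted p = 0.925) after normalization with TMM factors. Neutrophils have few UMIs per cell, and the comparisons with them depended on this normalization: library totals in place of TMM factors moved the median of all genes between monocytes and neutrophils from 0.13 to 1.08. They also turned C3 from lower in Arg1 macrophages than in neutrophils (-0.82, adjusted p = 0.0210) to a difference of 0.32 the other way (adjusted p = 0.380), and DESeq2 did not call it (0.176). In cells thinned to 2000 UMIs, C3 was found in 35.5% of Ly6c2-high monocytes, 24.1% of Adgre1-negative phagocytes, 23.2% of Arg1 macrophages, 20.6% of neutrophils, 18.6% of Adgre1 macrophages and 1.87% of T cells.

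Cfp, which encodes properdin, was the one member highest in dendritic cells. In Cd209a dendritic cells (412 cells gated on Cd209a and Flt3) it was at 2.85 and 3.23 UMIs per 10000 in the Csf1rfl/fl tumors and 2.52 and 2.78 in the Lyve1CreCsf1rfl/fl tumors. In Adgre1 macrophages it was at 2.16, 2.52, 1.92 and 2.26, lower than in the dendritic cells of the same tumor each time. The difference was 0.41 on the log2 scale (SE 0.141, adjusted p = 0.0221, edgeR's quasi-likelihood test), where 27.2% of all genes were called. This call was lost without the tumor as a block (adjusted p = 0.102), without the Csf1rfl/fl tumor of run 2 (0.0840) and without the Lyve1CreCsf1rfl/fl tumor of run 1 (0.0667). Cfp followed at 1.99 in Adgre1-negative phagocytes, 1.93 in Arg1 macrophages and 1.66 in Ly6c2-high monocytes, none of which differed from Adgre1 macrophages past the threshold. Plasmacytoid dendritic cells were at 1.35, 1.39, 1.25 and 2.002, type 1 dendritic cells at 0.537 ± 0.110 and mature dendritic cells at 0.198 ± 0.0311.

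The receptors for C3a and C5a had different patterns. C3ar1 was steady over the tumors in Adgre1 macrophages, at 4.18, 4.58, 4.18 and 4.49 UMIs per 10000, and in Arg1 macrophages, at 3.83, 4.21, 3.49 and 3.74. These types differed by 0.16 on the log2 scale (SE 0.176, adjusted p = 0.616, edgeR's quasi-likelihood test). It was lower in Adgre1-negative phagocytes, at 2.90, 1.98, 2.19 and 1.52, and in Ly6c2-high monocytes, at 2.05, 1.92, 1.51 and 1.35. Adgre1 macrophages were above the monocytes by 1.15 (SE 0.168, adjusted p = 8.06e-07). In neutrophils C3ar1 was at 0.113 ± 0.0241 (SD, n = 4).

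C5ar1 was highest in neutrophils, at 3.23, 4.06, 3.396 and 3.35 UMIs per 10000, and above each of the other 11 types (52.8% to 81.9% of all genes called). In Arg1 macrophages it was at 1.29, 1.82, 1.26 and 1.15, lower by 2.50 on the log2 scale with TMM factors (SE 0.179, adjusted p = 1.30e-17, edgeR's quasi-likelihood test, 52.8% of all genes called) and by 1.35 with library totals (adjusted p = 1.77e-09), the latter being the scale of these levels. In Adgre1 macrophages it was at 0.89, 1.40, 0.64 and 1.04 and in Ly6c2-high monocytes at 0.77, 0.62, 0.56 and 0.39. The Adgre1 macrophages were above the monocytes by 0.57 (SE 0.188, adjusted p = 0.0242), but DESeq2 (adjusted p = 0.0811), stricter gates (0.0521), the fit without the block (0.129) and the fit without the Csf1rfl/fl tumor of run 2 (0.376) or without the Lyve1CreCsf1rfl/fl tumor of run 2 (0.0712) did not call it. C5ar1 was found in 46.3% of neutrophils with 2000 UMIs, a depth that 2568 neutrophils did not reach, and in 0.606% of T cells.

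The barcodes of 2 or more lineages held 28.9% of all UMIs, and a larger part of those of C1q and C3ar1. Of 33777 C1qa UMIs in kept cells, 47.9% lay in the 4 phagocyte types and 48.4% in barcodes of 2 or more lineages. Adgre1 macrophages held 21.9% of them, with 2.35% of all UMIs. The barcodes of 2 or more lineages held 56.9% of the C1q UMIs of the Csf1rfl/fl tumor of run 1, against 29.2% in that of run 2 and 33.7% and 41.1% in the Lyve1CreCsf1rfl/fl tumors. Those with both phagocyte and T-cell markers were 1399 barcodes and held 29.3% of all C1q UMIs, and Scrublet marked 84.3% of them. Of C3ar1, 40.2% of the UMIs lay in barcodes of 2 or more lineages, and of C3, Cfp, C5ar1 and Cfb 24.4% to 30.4%, near the share of all genes. Neutrophils held 44.4% of the C5ar1 UMIs, against 8.02% of all UMIs. Ly6c2-high monocytes, with 9.05% of all UMIs, held 34.7% of those of Cfb, 28.9% of those of C3 and 17.2% of those of Cfp. The 4 kinds of dendritic cells held 9.72% of the Cfp UMIs and 9.27% of all UMIs.

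**Figure D4:**
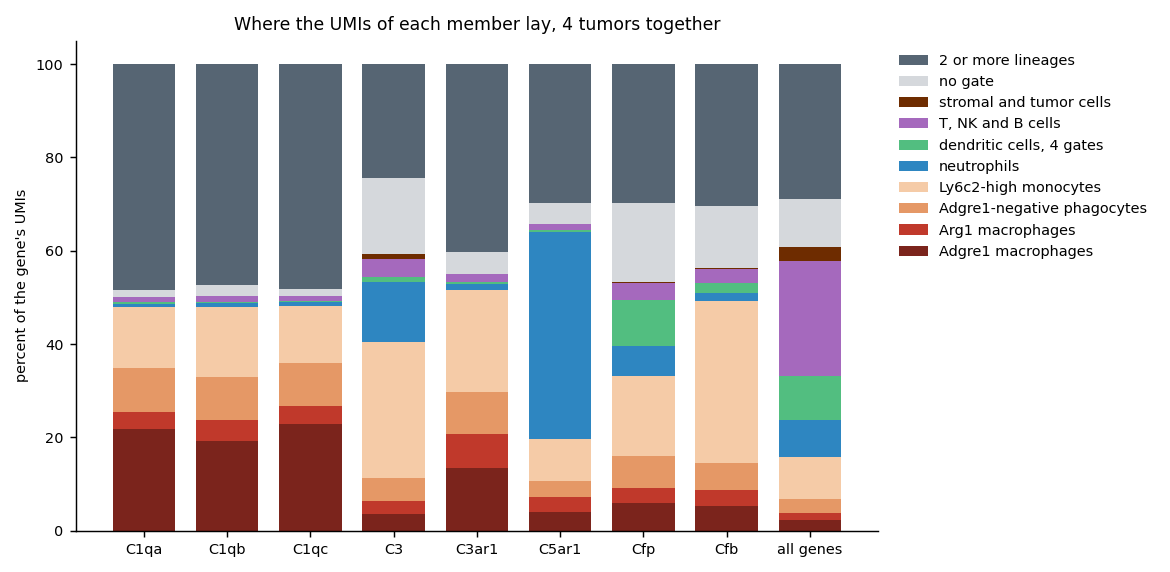
Share of the UMIs of each member, in percent, by cell type, beside that of all genes, with the barcodes of 2 or more lineages and those in no gate shown apart. Adgre1 macrophages hold 21.9% of the C1qa UMIs, neutrophils 44.4% of the C5ar1 UMIs, and barcodes of 2 or more lineages 48.4% of the C1qa UMIs.

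Genotypes were compared to ask whether the genes differed in tumors of mice in which Lyve1Cre removed Csf1r. Within a cell type, edgeR's quasi-likelihood test on 2 against 2 tumors called none of the 8 genes in Adgre1 macrophages, where 0.0142% of all genes (1 of 7062) were called, while 4 of the 8 had an unadjusted p under 0.05 (5.21% of all genes) and DESeq2 called none. C1qa was 21.2 ± 3.76 UMIs per 10000 in Csf1rfl/fl tumors (SD, n = 2) and 11.7 ± 2.93 in Lyve1CreCsf1rfl/fl tumors, with a ratio of 0.577 in run 1 and 0.520 in run 2. The log2 difference was -0.87 (SE 0.278, adjusted p = 0.597). Each run held 1 tumor of each genotype, and with the run as a block the difference was -0.87 with an adjusted p of 0.00636 (edgeR's quasi-likelihood test). With that block, 4 tumors leave little to measure the spread of a single gene. Such p-values therefore rest largely on the spread of other genes. C1qb differed by -0.75 (SE 0.281, adjusted p = 0.741; with the run as a block -0.73, adjusted p = 0.0240) and C1qc by -0.92 (SE 0.270, adjusted p = 0.565; with the block -0.89, adjusted p = 0.00786). In cells of 3000 to 8000 UMIs, the differences without the block were -0.88, -0.69 and -0.78, and none was called. With the block 0.581% of all genes were called. A fit without 1 tumor has a single tumor in that genotype, so the spread comes from the tumors of the other genotype and the lone tumor is assumed to vary like them. Without the Csf1rfl/fl tumor of run 1, the differences were -0.63, -0.42 and -0.62, and none was called, with 0.785% of all genes called. Without the Csf1rfl/fl tumor of run 2, C1qa (-1.09, adjusted p = 0.0491) and C1qc (-1.19, adjusted p = 0.0180) were called, with 0.625% of all genes called.

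Levels of other genes in the same Adgre1 macrophages are given beside this difference, and their part in it was not tested. Ms4a7 was at 13.3 and 10.9 UMIs per 10000 in the controls and 5.38 and 5.39 in the Lyve1CreCsf1rfl/fl tumors. Plac8 was at 10.98 and 12.1 against 21.6 and 26.1, and Cd74, the invariant chain of MHC class II, at 24.4 and 30.8 against 48.0 and 46.4. Like the C1q chains, they were not called by edgeR's quasi-likelihood test (adjusted p = 0.1997 for Ms4a7, 0.282 for Plac8 and 0.597 for Cd74) and were called with the run as a block (0.000632, 0.000756 and 0.0126). Adgre1, at 2.59 and 3.11 against 2.80 and 3.25, overlapped between genotypes. The T-cell genes Cd3d, Cd3e and Cd3g were at 0.21 or lower in every tumor.

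The other 5 members were not called in Adgre1 macrophages with or without the block. C3 differed by 0.85 on the log2 scale (SE 0.275, adjusted p = 0.597, edgeR's quasi-likelihood test; with the run as a block, adjusted p = 0.0734), from 0.85 and 1.24 UMIs per 10000 in the controls to 1.996 and 1.75, without overlap, as 16.4% of all genes were in this direction. C3ar1 differed by -0.02 (95% interval from the SE of the fit, -0.51 to 0.47). C5ar1 differed by -0.44, Cfb by 0.24 and Cfp by -0.17, each with overlapping tumors.

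In Adgre1-negative phagocytes the chains differed by -1.24, -1.08 and -1.44 (C1qa, C1qb, C1qc; adjusted p = 1 for each with edgeR's quasi-likelihood test, 0.0124% of all genes called). With the run as a block, the adjusted p in the same test was 2.62e-08, 7.02e-07 and 8.26e-09, with 0.397% of all genes called. The spread behind these values again rests largely on other genes and not on that measured between tumors. Without the Csf1rfl/fl tumor of run 1 the differences shrank to -0.49, -0.27 and -0.50 and were not called (0.177% of all genes called), and without that of run 2, again with a lone control, they were called (adjusted p = 0.00126, 0.00470 and 2.94e-05, 0.589% of all genes called). Over the 4 phagocyte types together, C1qa was at 9.10 and 5.60 UMIs per 10000 in the controls and 4.06 and 3.12 in the Lyve1CreCsf1rfl/fl tumors, a difference of -1.02 (adjusted p = 1, 0% of all genes called; with the block, adjusted p = 0.00130 and 0.205% of all genes called). In Arg1 macrophages the chains differed by -0.74, -0.78 and -0.87, and the runs differed in direction, with a C1qa ratio of 0.287 in run 1 and 1.37 in run 2 (adjusted p = 0.973 with the block). In Ly6c2-high monocytes they differed by -0.49, -0.44 and -0.48 (block, adjusted p = 0.452 to 0.542, 0.0211% of all genes called). In neutrophils they differed by -0.71, -0.94 and -1.12, at levels of 0.30 UMIs per 10000 or lower for C1qa. In T cells, which served here as a background, they differed by -0.98, -1.48 and -0.93 and were not called (0% of all genes called), except without the Csf1rfl/fl tumor of run 2, again with a lone control (adjusted p = 0.0155, 7.89e-07 and 0.0385, edgeR's quasi-likelihood test, 0.513% of all genes called). Cells with 10 or more C1q UMIs held 35.2% and 37.8% of the C1q UMIs of T cells in the controls and 0% and 15.7% in the Lyve1CreCsf1rfl/fl tumors. In Arg1 macrophages, monocytes and neutrophils no member was called by edgeR, with or without the block, or by DESeq2, and 2, 0 and 3 members had an unadjusted p under 0.05, beside 2.96%, 1.32% and 1.03% of all genes. Of all genes, 0.0172%, 0% and 0% were called without the block.

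**Figure D5:**
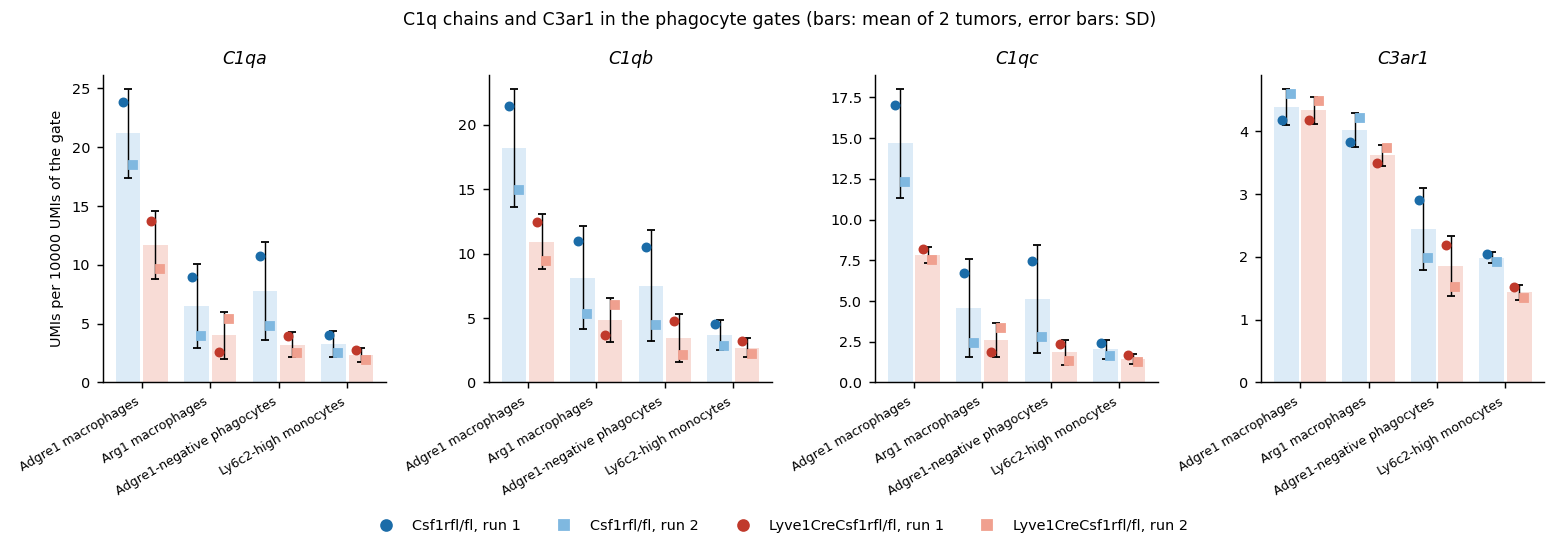
Level of the C1q chains and C3ar1 in the 4 phagocyte types, in UMIs per 10000, with 1 point per tumor, bars at the mean of the 2 tumors of a genotype and error bars of 1 SD. In Adgre1 macrophages each C1q chain is lower in both Lyve1CreCsf1rfl/fl tumors than in both controls, and C3ar1 overlaps between genotypes.

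Whether the difference between genotypes was larger in Adgre1 macrophages than in monocytes was tested as an interaction. It was -0.41 for C1qa (adjusted p = 0.457, edgeR's quasi-likelihood test), -0.31 for C1qb (0.617) and -0.44 for C1qc (0.457), and no member was called, with 0.139% of all genes called and 4 of the 8 members at an unadjusted p under 0.05 (7.82% of all genes). Without the Lyve1CreCsf1rfl/fl tumor of run 2, C1qa (adjusted p = 0.0454) and C1qc (0.00583) were called, with 0.712% of all genes called and 1 tumor in that genotype.

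Over all kept cells of a tumor, C1qa was at 3.80 and 1.82 UMIs per 10000 in the controls and at 0.817 and 0.724 in the Lyve1CreCsf1rfl/fl tumors. The log2 differences were -1.92 for C1qa, -1.81 for C1qb, -2.01 for C1qc and -1.25 for C3ar1, with adjusted p of 0.785 or more in edgeR's quasi-likelihood test, 0.208 to 0.214 with the run as a block, and 0.000115, 0.000546, 5.10e-05 and 0.00027 with DESeq2, which called 0.183% of all genes. No gene of any kind was called by edgeR (0%), and 6 of the 8 members had an unadjusted p under 0.05 (3.28% of all genes). In such sums fewer cells of a type and less RNA per cell cannot be told apart. Phagocytes, gated in part on Csf1r itself, were fewer in the Lyve1CreCsf1rfl/fl tumors. Without the Csf1rfl/fl tumor of run 1, the C1qa difference was -1.19 and the 3 chains were not called (adjusted p = 0.192 to 0.494, 0.0263% of all genes called). Without any one of the other tumors, edgeR called the 3 chains, with an adjusted p for C1qa of 0.0419 (without Csf1rfl/fl of run 2), 0.00127 (without Lyve1CreCsf1rfl/fl of run 1) and 0.0221 (without Lyve1CreCsf1rfl/fl of run 2). These fits called 0.138%, 0.695% and 0.552% of all genes, each with a lone tumor in a genotype.

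A list of 44 other complement genes, all present in the table, was looked at beside the members. Of these, 22 had at least 100 UMIs and 5 had none, among them C7 and Cfi. Of the subunits of complement receptors 3 and 4, Itgam was at 5.14 UMIs per 10000 in Arg1 and 4.26 in Adgre1 macrophages, Itgb2 at 2.86 and 2.46, and Itgax at 1.55 and 1.70. Cd93, a C-type lectin of myeloid cells, was at 1.65 and 1.59. None of these 4 genes differed between the macrophage types past the threshold (adjusted p = 0.120, 0.141, 0.823 and 0.933, edgeR's quasi-likelihood test). C5ar2, the other receptor of C5a, had means of 0.177 in neutrophils and 0.127 in Adgre1 macrophages. Of the early components, C4b had means of 0.198 in Adgre1 macrophages and 0.178 in stromal or tumor cells, and C2 had its highest mean, 0.399, in stromal or tumor cells. Vsig4, the complement receptor of resident macrophages, had 16 UMIs.

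Between Adgre1 macrophages and Ly6c2-high monocytes, 17 genes of the list were tested, of which 2 (C1qbp and Cd59a) were higher and 1 was lower in the macrophages. Of all genes, 20.6% were called, 7.78% higher and 12.8% lower, so the list was near the share of all genes. The median of the 17 genes was 0.09 on the log2 scale, beside 0.86 over the 8 members and -0.05 over all genes. Against Arg1 macrophages, C1qbp was higher and Lrp1, an endocytic receptor, was lower, with 15.2% of all genes called. No gene of the list was called between genotypes in any cell type. In Adgre1 macrophages 10 were tested, with a median of -0.37, and 0.0142% of all genes were called.

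The genes most like a member were found by Pearson's r of log2(CPM + 1) over 48 points, the 12 types in 4 tumors, among 11242 genes. The points share tumors and depth, so r is a description. For C1qa those close to it included Ms4a7 (r = 0.973), C1qb (0.972), C1qc (0.958), Ccl12 (0.949), Itga9 (0.930) and C3ar1 (0.928). Ms4a7 was also a gene of the phagocyte gate. For C5ar1 they were Mmp8 (0.946), Clec4d (0.944) and Clec4e (0.940), and C5ar2 was among the first 10 (0.918). For Cfp, r was highest for Lmo2 (0.956), and Lyn (0.939), Cd68 (0.926) and Irf7 (0.924) were among the first 10.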

How the data were processed

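CD45+ cells of 4 tumors were sequenced with the Chromium 3′ kit in 2 runs. The authors aligned the reads to mm10 with Cell Ranger 6.0.1 and deposited a raw count of UMIs for each gene in each cell, with raw counts of both hashtags. They also deposited whole-number scores, counts corrected by SCTransform in Seurat, for the cells they kept (singlets, less than 5% mitochondrial UMIs, no cluster specific to 1 tumor). The paper states that the removed clusters were specific to the second Lyve1CreCsf1rfl/fl tumor. Levels and shares over all kept cells of that tumor therefore leave those cells out. The scores served only to name the kept cells (53.3% of barcodes). The higher hashtag count gave a cell's tumor, and the centered log ratio moved 75 cells.

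Cell types were gated on marker UMIs: for example, at least 3 UMIs of Cd3d, Cd3e and Cd3g for T cells, and at least 100 UMIs per 10000 of S100a8 and S100a9 for neutrophils. Cells meeting gates of 2 or more lineages were left out of the types. Scrublet in scanpy 1.11.5 (expected rate 0.2) was run within each run, and its calls were removed only in an alternative. UMIs were summed per tumor and type and tested with edgeR 4.0.16 (filterByExpr, TMM factors, quasi-likelihood test, Benjamini-Hochberg adjustment over all genes tested, threshold 0.05) in R 4.3.3, with DESeq2 1.42.0 as an alternative. Standard errors come from the fold change and the test statistic. The same fits were also run on simulated counts with known changes, and the outcome is not given here. The study's own test compared cells, whereas here n is tumors. With 2 tumors per genotype an exact permutation test cannot give a two-sided p below 0.333.

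The run pairs the tumors, since 1 tumor of each genotype was captured together. The difference of run 1 and run 2 in Csf1rfl/fl tumors correlated across genes with that in Lyve1CreCsf1rfl/fl tumors, with r = 0.27 in Adgre1 macrophages, 0.43 in Ly6c2-high monocytes and 0.54 in neutrophils, and genes are not independent replicates. Some genes of the lists and gates are not reported here. The genes named are among the 8 members, the list of 44 complement genes, marker genes and the 10 genes closest to C1qa, C5ar1 and Cfp. The members and lists were chosen with earlier results of these data known. Coordinates are from GENCODE vM21 and promoters from RefSeq. Tables and figures were made in Python 3.11.15 (pandas 2.3.3, numpy 2.4.6, matplotlib 3.10.9, scipy 1.17.1). Intervals on shares of cells cover counting error only, and that on a fold change comes from the SE of the fit between tumors.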

Additional observations from a re-analysis of the deposited data

Results flagged for a closer look

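Of 54 sets of 4 tumor values with at least 100 UMIs, 2 had a tumor far from the others, where chance gives about 1 in 20. C3 in stromal and tumor cells was at 1.63 UMIs per 10000 in the Csf1rfl/fl tumor of run 2, from 18 cells, and at 0.0766 to 0.177 in the other tumors, a gap of 0.935 of the range. C5ar1 in Adgre1-negative phagocytes was at 0.495 in the Lyve1CreCsf1rfl/fl tumor of run 2 and at 0.754 to 0.783 in the others, a gap of 0.900 of the range.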

How the results depend on the processing

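Over 6 sets of phagocytes and neutrophils, 48 tests of a member between genotypes gave 0 calls, 9 calls with the run as a replicate block, and 0 to 5 calls when 1 tumor was left out (5 without the Csf1rfl/fl tumor of run 2). Over all kept cells, 0 of 8 members were called (0% of all genes), and 4 with DESeq2 (0.183% of all genes). Without a filter on low counts 4 were called, and the number of genes called there is given below. The interaction gave 0 calls, in a fit that called 0.139% of all genes. Between cell types, 43 of 56 tests were called in 7 comparisons that called 2.36% to 66.2% of all genes, and 38 to 46 under the alternatives (39 without the block, 38 with DESeq2).

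Of 300 alternative values of single members between cell types, 286 kept their direction and their side of the threshold, 13 lost the call and 1 reversed, and of 228 between genotypes 193 kept both, 31 gained a call and 4 reversed. Among the 228 values between genotypes, C1qa reversed in Arg1 macrophages of similar depth (0.0780). With 1 tumor left out, C1qa (-1.29 to 0.0239) and C1qc (-1.46 to 0.0939) reversed in Arg1 macrophages. So did C1qb in Ly6c2-high monocytes (-0.87 to 0.0214). These values with 1 tumor left out were each above 0 without the Csf1rfl/fl tumor of run 1. The cause was not tested. The 228 values leave out some tests of members, and some differences outside them also crossed 0 under an alternative. In Adgre1 macrophages, for example, Cfb went from 0.24 to as low as -0.33, and C5ar1 from -0.44 to as high as 0.19. With library totals, C3 between Arg1 macrophages and neutrophils reversed to 0.32.

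The level of C3ar1 in Adgre1 macrophages moved from 4.36 to 6.18 UMIs per 10000 with stricter gates, 5.01 without Scrublet doublets and 5.46 in cells of similar depth. Stricter gates gave 5.19 for Cfb in Ly6c2-high monocytes (4.25) and 3.33 for Cfp in Cd209a dendritic cells (2.84), and similar depth gave 3.09 for C5ar1 in neutrophils (3.51). Thinning to 2000 UMIs moved the share of cells with a UMI from 69.5% to 48.1% for C3ar1, 61.0% to 35.5% for C3, 68.2% to 47.1% for Cfb, 51.0% to 46.3% for C5ar1 and 67.2% to 39.95% for Cfp.

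Between genotypes, the genes called went from 1 to 41 in Adgre1 macrophages and from 1 to 32 in Adgre1-negative phagocytes with the replicate block, and from 0 to 22 in all phagocytes. They went from 0 to 27 with DESeq2 and to 175 without a filter over all kept cells. The interaction went from 13 genes to 1 with DESeq2 and to 26 without doublets. With library totals, calls between Adgre1 macrophages and Ly6c2-high monocytes went from 860 higher and 1419 lower to 1493 and 726. The block changed no call of a member within a cell type other than those of the 3 chains in Adgre1 macrophages, Adgre1-negative phagocytes and all phagocytes. Type 1 dendritic cells and stromal or tumor cells had under 10 cells in a tumor at similar depth and were not fitted there. The 2 tumors per genotype, and 62 to 230 Adgre1 macrophages per tumor, limit the precision.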
